A study of Mus musculus with 39 samples.

Results

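The TrkC+ and TrkC- cells of the dorsal root ganglia (DRG) were compared in newborn mlcNT3 mice, which make surplus neurotrophin 3 (NT3) in skeletal muscle. The comparison holds 4 of the 39 arrays of the series, 2 of TrkC+ cells and 2 of TrkC- cells, chosen by their labels alone, and covers all 45037 probe sets other than the 64 array controls. Both mlcNT3 groups carried the mlcNT3 transgene, in which the myosin light chain promoter drives NT3 in muscle, together with the TrkCGFP reporter, a bacterial artificial chromosome transgene that labels proprioceptors with green fluorescent protein. They were taken at P0 on a mixed 129/C57Bl6 background, from ganglia of lumbar levels L1 to L6 pooled. Dissociated cells were sorted by fluorescence, about 350 cells a sample, and TrkC+ and TrkC- stand for sorted cells with and without reporter fluorescence. Cells with reporter fluorescence were also gated for size. Nothing in the labels ties a sample to separate litters, so p-values measure the spread between these samples. The groups set beside them were sorted in the same way at the same age from wild-type mice and from NT3-/-Bax-/- mice, which lack NT3 and also the pro-death gene Bax, each with 2 TrkC+ and 2 TrkC- samples and all carrying TrkCGFP. Bax-/- mice, with as many samples, entered the fit for its estimate of the spread and are otherwise used in 1 correlation.

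Proprioceptors are the sensory neurons that report muscle length and tension to the spinal cord, through endings on muscle spindles and Golgi tendon organs. They depend on NT3, which skeletal muscle releases and which acts on their receptor TrkC, the product of Ntrk3, and their transcription factor Runx3 is set against Runx1, which is used by pain-sensing neurons. The remaining cells of a ganglion are neurons for pain, itch, temperature and touch, and the Schwann cells, satellite glia, fibroblasts and vessel cells around them, so that TrkC- cells are a mixture. In the paper's counts of newborn ganglia, only part of the cells with TrkC, and most but not all neurons with Runx3, carried the reporter. TrkC- cells can thus include neurons that express TrkC, and some proprioceptors. In a bulk sample, fewer cells of a type and less RNA per cell cannot be told apart, and mlcNT3 mice are known to have more proprioceptors in lumbar ganglia than wild-type mice.

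Replicate arrays correlated at 0.992 for TrkC+ and 0.993 for TrkC- cells of mlcNT3 mice over all probe sets on the log2 scale. TrkC+ replicate 2 stood apart in its bright range, with a 99th percentile of 12.31 on the log2 scale against 12.66 to 12.78 on the other 15 arrays of the fit. In the brightest probe sets, the median log2 difference of TrkC+ replicate 2 minus replicate 1 was -0.43. These had a mean log2 of 12 or more over arrays that included TrkC+ replicate 1 but not replicate 2. That choice can itself lower the value. Xist was bright and the Y-linked transcripts were near the floor in replicate 1 of both mlcNT3 populations, and the reverse held in replicate 2, so that this difference was balanced between TrkC+ and TrkC- cells. The Y-linked gene Eif2s3y had intensities of 9.79 and 556 in TrkC+ cells, against 10.96 and 872 in TrkC- cells. In the limma fit over 16 arrays, 1884 of 45037 probe sets (4.18%) were higher and 2631 (5.84%) lower in TrkC+ than in TrkC- cells at an adjusted p under 0.05. Without 1 of the mlcNT3 arrays the counts were 1177 higher and 2065 lower (without TrkC+ replicate 1), 1129 and 1178 (without TrkC+ replicate 2), 930 and 1199 (without TrkC- replicate 1), and 1072 and 1372 (without TrkC- replicate 2). Quantile normalization gave 2339 higher and 2286 lower. At the threshold of the study, p of at most 0.02 and 2-fold, 1485 (3.3%) were higher and 1896 (4.21%) lower.

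With 1 probe set a gene, the brightest, 984 of 18193 genes (5.41%) were higher and 1471 (8.09%) lower in TrkC+ cells, with a median log2 difference over all genes of -0.01. Of these, 706 were at least 2-fold higher and 892 at least 2-fold lower, and 30 were higher and 37 lower by 16-fold or more. In 10634 of all 18193 genes (58.5%), called or not, the TrkC+ arrays did not overlap the TrkC- arrays. Non-overlap of 2 and 2 arrays was therefore common and is given as description only. The sort was first read on the genes that define proprioceptors. Of 9 proprioceptor markers measured, 7 were higher, none was lower, and their median log2 difference was 3.66. Without TrkC+ replicate 2 or either TrkC- replicate, 6 of the 9 were called. Ntrk3 itself had intensities of 2668 and 1709.9 in TrkC+ cells, against 124 and 228 in TrkC- cells (log2 difference 3.66 ± 0.31, adjusted p = 1.44e-05), and 5 of its 8 probe sets were higher. Pvalb, which encodes the calcium buffer parvalbumin, had 7156 and 6087 in TrkC+ cells, against 63.7 and 81.8 in TrkC- cells (log2 difference 6.51 ± 0.55, adjusted p = 1.6e-05). Runx3, the transcription factor of proprioceptors, had 986 and 513 in TrkC+ cells, against 20.1 and 16.4 in TrkC- cells (log2 difference 5.29 ± 0.29, adjusted p = 8.53e-07). In each of these genes every TrkC+ array lay several-fold above every TrkC- array, and TrkC+ replicate 2 was the lower of its pair. The orphan nuclear receptor gene Esrrg had intensities of 1989.5 and 1658 in TrkC+ cells, against 63.6 and 30.5 in TrkC- cells (log2 difference 5.36 ± 0.38, adjusted p = 4.47e-06). The parathyroid hormone receptor gene Pth1r had 1981 and 1540.3 in TrkC+ cells, against 95.9 and 114 in TrkC- cells (log2 difference 4.06 ± 0.41, adjusted p = 5.91e-05). Gjd2, which encodes a neuronal gap junction protein, had 416 and 532 in TrkC+ cells, against 67.9 and 116 in TrkC- cells (log2 difference 2.41 ± 0.36, adjusted p = 0.000995). The calcium buffer gene Calb1 was closer, with 784 and 719.8 in TrkC+ cells, against 332 and 239 in TrkC- cells (log2 difference 1.42, adjusted p = 0.0201), and its adjusted p was 0.0516 to 0.166 without 1 of the 4 mlcNT3 arrays. The other 2 markers, Esrrb and Heg1, did not pass the test, with log2 differences of 1.08 and -0.82.

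**Figure D1:**
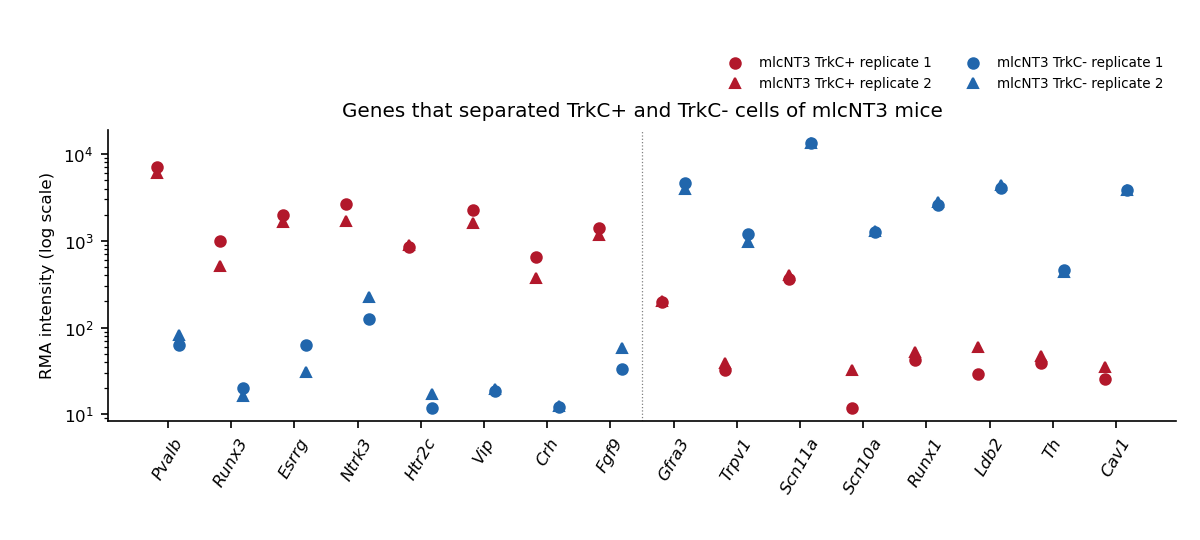
RMA intensity on a log axis in each of the 4 mlcNT3 arrays (red, TrkC+ cells; blue, TrkC- cells; circle, replicate 1; triangle, replicate 2) for genes higher (left of the dotted line) and lower (right) in TrkC+ cells. The populations do not overlap for any of the 16 genes shown, whose log2 differences lie between 3.66 for Ntrk3 and 6.64 for Vip on the left and between -3.38 for Th and -7.02 for Cav1 on the right. Over all genes, 58.5% do not overlap.

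Markers of pain- and itch-sensing neurons lay on the other side. Of 15 measured, none was higher, 9 were lower and 6 did not pass the test, with a median log2 difference of -1.30. Without 1 of the mlcNT3 arrays, 7 to 9 were lower. The sodium channel genes of nociceptors were among the most unequal. Scn10a had intensities of 11.9 and 32.3 in TrkC+ cells, against 1278 and 1300.0 in TrkC- cells (log2 difference -6.04 ± 0.52, adjusted p = 1.82e-05). Scn11a had 361 and 399 in TrkC+ cells, against 13431 and 13281 in TrkC- cells (log2 difference -5.14 ± 0.69, adjusted p = 0.000482). Runx1 had 41.9 and 52.5 in TrkC+ cells, against 2559 and 2767 in TrkC- cells (log2 difference -5.83 ± 0.54, adjusted p = 2.86e-05), with 4 of its 6 probe sets lower. Scn10a and Runx1 were near the low end of the array in TrkC+ cells, whereas Scn11a kept a clear signal there. The capsaicin receptor gene Trpv1 had intensities of 32.1 and 39.6 in TrkC+ cells, against 1189 and 975 in TrkC- cells (log2 difference -4.92 ± 0.24, adjusted p = 3.38e-07). Gfra3, the artemin receptor subunit, had 199 and 203 in TrkC+ cells, against 4649.8 and 3947 in TrkC- cells (log2 difference -4.41 ± 0.17, adjusted p = 1.15e-07). Mrgpra3, a receptor of itch neurons, had 49.2 and 72.1 in TrkC+ cells, against 289 and 362 in TrkC- cells (log2 difference -2.44 ± 0.26, adjusted p = 7.98e-05). The groups did not overlap in any of these. Smaller differences were found for Plxnc1, a semaphorin receptor (-1.19, adjusted p = 0.00169), and for Gfra2, a neurturin receptor subunit (-1.41, adjusted p = 0.0126). Gfra2 lost its call without TrkC+ replicate 2 or TrkC- replicate 2, and was at -1.75 to -1.07 without 1 of the mlcNT3 arrays. Trpa1, the irritant receptor, was dim in both populations, with 52.8 and 55.3 in TrkC+ cells, against 90.4 and 89.8 in TrkC- cells (log2 difference -0.74, adjusted p = 0.0236), and its adjusted p was 0.0973 to 0.131 without 1 of the mlcNT3 arrays. Several genes commonly used for nociceptors were not called. P2rx3, an ATP receptor subunit, had intensities of 6126 and 4210.4 in TrkC+ cells, against 7476 and 7137 in TrkC- cells (log2 difference -0.52 ± 0.23, adjusted p = 0.216). Prph, which encodes the intermediate filament peripherin, had 9593 and 7266 in TrkC+ cells, against 11643 and 11592 in TrkC- cells (log2 difference -0.48 ± 0.23, adjusted p = 0.252). The substance P precursor gene Tac1 had 3692 and 3878 in TrkC+ cells, against 9838 and 8879.7 in TrkC- cells (log2 difference -1.30 ± 0.62, adjusted p = 0.255). These 3 had lower values in each TrkC+ array than in either TrkC- array and did not pass the test. The populations also did not overlap in 58.5% of all genes. Under quantile normalization P2rx3 and Prph were at -0.37 and -0.25, and Calcb and Trpm8, also not called, at -0.78 and -0.64. Nos1, not called in the main fit, went the other way, at 0.76 under quantile normalization, and was called higher there (adjusted p = 0.0259).

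The largest fall of all named genes was that of Cav1, which encodes the membrane coat protein caveolin 1, with intensities of 25.4 and 34.8 in TrkC+ cells, against 3874 and 3839 in TrkC- cells (log2 difference -7.02 ± 0.56, adjusted p = 1.12e-05). Other genes of the 15 largest falls were Tmem45b (39.1 and 42.5 in TrkC+ cells, against 4815 and 4208 in TrkC- cells), the LIM domain cofactor gene Ldb2 (29.4 and 60.3 in TrkC+ cells, against 4091 and 4425 in TrkC- cells) and Gna14, a G protein alpha subunit (24.2 and 43.9 in TrkC+ cells, against 3277 and 2867 in TrkC- cells). Their log2 differences were -6.79, -6.66 and -6.56. St6gal2, a sialyltransferase, had intensities of 9.79 and 11.6 in TrkC+ cells, against 772 and 986 in TrkC- cells (log2 difference -6.36 ± 0.45, adjusted p = 4.47e-06). Acpp, an ectonucleotidase known from nociceptors, had 112 and 156 in TrkC+ cells, against 8305 and 8300.4 in TrkC- cells (log2 difference -5.97 ± 0.81, adjusted p = 0.000503). Lgals3, which encodes galectin 3, had 50.4 and 50.2 in TrkC+ cells, against 2727 and 2575 in TrkC- cells (log2 difference -5.72, adjusted p = 0.00639). Its call was lost without TrkC+ replicate 2 or TrkC- replicate 1, and its difference was -5.76 to -5.68 without 1 of the mlcNT3 arrays. The rest of the 15 were Nwd2, Klf5, Cldn9, 9430021M05Rik and Car8, with log2 differences between -5.31 and -4.99, beside Scn10a, Runx1 and Scn11a.

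The largest rises included 2 neuropeptide genes. Vip, which encodes vasoactive intestinal peptide, had intensities of 2256 and 1605 in TrkC+ cells, against 18.5 and 19.7 in TrkC- cells (log2 difference 6.64 ± 0.81, adjusted p = 0.000224). Crh, which encodes corticotropin-releasing hormone, had 655 and 373 in TrkC+ cells, against 12.2 and 12.5 in TrkC- cells (log2 difference 5.32 ± 0.48, adjusted p = 2.56e-05). Both were at the low end of the array in TrkC- cells and bright in both TrkC+ arrays. The serotonin receptor gene Htr2c had intensities of 838 and 896 in TrkC+ cells, against 11.9 and 17.3 in TrkC- cells (log2 difference 5.91 ± 0.21, adjusted p = 9.8e-08), and 1 of its 2 probe sets was called. Trhr, the receptor for thyrotropin-releasing hormone, had 772 and 639 in TrkC+ cells, against 14.1 and 19.6 in TrkC- cells (log2 difference 5.40 ± 0.26, adjusted p = 3.2e-07). Rnase10, a ribonuclease A family member, had 1122 and 429 in TrkC+ cells, against 17.0 and 15.01 in TrkC- cells (log2 difference 5.44 ± 0.33, adjusted p = 1.53e-06), with the 2 TrkC+ arrays further apart than in most of this group. Gpat3, an enzyme of glycerolipid synthesis, had intensities of 845 and 626 in TrkC+ cells, against 13.6 and 15.7 in TrkC- cells (log2 difference 5.64 ± 0.25, adjusted p = 2.77e-07). Pappa2, a protease that cleaves insulin-like growth factor binding proteins, had 4299 and 3352 in TrkC+ cells, against 71.5 and 84.1 in TrkC- cells (log2 difference 5.61 ± 0.46, adjusted p = 1.33e-05). Pcdh8, a protocadherin, had 4790.4 and 3728 in TrkC+ cells, against 102 and 178 in TrkC- cells (log2 difference 4.97 ± 0.59, adjusted p = 0.00019). In all 3 the TrkC+ arrays were bright and lay close together. Fgf9, a fibroblast growth factor, had intensities of 1409 and 1160.2 in TrkC+ cells, against 33.8 and 57.9 in TrkC- cells (log2 difference 4.85 ± 0.28, adjusted p = 1.06e-06). Adgrg3, an adhesion G protein-coupled receptor, had 891 and 853 in TrkC+ cells, against 30.2 and 28.2 in TrkC- cells (log2 difference 4.90 ± 0.50, adjusted p = 6.21e-05). Gm16551 and E430016F16Rik, for which no role is given here, had log2 differences of 5.71 and 4.85. Of 21 neuropeptide genes measured, Vip and Crh were higher, 3 were lower and 16 were not called. The 3 lower ones were the granin gene Scg2 (451 and 331 in TrkC+ cells, against 4266 and 3568 in TrkC- cells, log2 difference -3.34), the neuromedin gene Nmb (92.3 and 140.1 in TrkC+ cells, against 783 and 736 in TrkC- cells, log2 difference -2.74) and Adcyap1, the gene of the peptide PACAP (-1.15, adjusted p = 0.0104). Adcyap1 lost its call without TrkC+ replicate 2 or TrkC- replicate 1, and was at -1.33 to -0.97 without 1 of the mlcNT3 arrays.

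The 250 bases before the first listed start of Vip, Pvalb and Rnase10 are shown because Vip and Pvalb were far higher in TrkC+ cells and Rnase10 was far above wild type there, as reported below. Vip and Rnase10 lay below the lower quartile of all probe sets in TrkC- cells (4.56 and 4.52 on the log2 scale in replicates 1 and 2), so that the sizes and ranks of their log2 differences rest on values at the low end of the array. They come from RefSeq on build GRCm38.p6 and run 5′ to 3′ on the gene's strand. Capitals mark matches, on either strand, to 3 motifs chosen after the values were seen: TGTGGT, which RUNX factors bind, TGACGTC, most of a cyclic AMP response element, and TATAAA, the TATA box.
Vip (chr10:5638968-5639217, + strand): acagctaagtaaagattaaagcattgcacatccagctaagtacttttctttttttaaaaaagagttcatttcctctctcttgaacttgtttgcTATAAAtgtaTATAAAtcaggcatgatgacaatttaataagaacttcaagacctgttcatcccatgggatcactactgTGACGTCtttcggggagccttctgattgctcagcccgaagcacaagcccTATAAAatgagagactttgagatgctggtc
Pvalb (chr15:78206401-78206650, - strand): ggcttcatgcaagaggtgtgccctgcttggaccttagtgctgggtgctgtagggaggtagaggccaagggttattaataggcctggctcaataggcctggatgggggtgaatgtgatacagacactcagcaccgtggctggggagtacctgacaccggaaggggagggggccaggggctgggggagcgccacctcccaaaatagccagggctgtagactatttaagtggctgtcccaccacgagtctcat
Rnase10 (chr14:51007501-51007750, + strand): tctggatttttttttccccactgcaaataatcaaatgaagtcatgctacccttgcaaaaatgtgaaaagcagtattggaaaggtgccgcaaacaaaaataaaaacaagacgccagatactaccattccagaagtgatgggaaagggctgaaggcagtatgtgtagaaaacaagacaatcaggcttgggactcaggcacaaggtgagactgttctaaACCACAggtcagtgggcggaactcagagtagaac
Vip held the cyclic AMP element letters starting 79 bases and TATAAA starting 30, 147 and 157 bases before its start, Rnase10 held the RUNX letters on the other strand starting 34 bases before its start, and Pvalb held none of the 3. A start was listed for 14452 of the 18193 genes. TGTGGT stood in 9.72% of 782 genes called higher, in 10.0% of 1136 called lower and in 11.7% of all 14452. TGACGTC stood in 3.07%, 3.61% and 4.0% of these sets, and TATAAA in 9.85%, 5.37% and 9.02%. A match is a description of the letters and not a site.

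Genes of touch-sensing neurons were split. Of 11 cutaneous mechanoreceptor markers measured, 4 were higher and 3 lower, with a median log2 difference of 0.30. Without TrkC+ replicate 1, 2 were higher and 1 lower, and without any of the other 3 mlcNT3 arrays 3 to 4 were higher and 1 lower. The homeobox gene Shox2 had intensities of 1059.7 and 933 in TrkC+ cells, against 195 and 144 in TrkC- cells (log2 difference 2.57 ± 0.36, adjusted p = 0.000689). Maf, a transcription factor of low-threshold mechanoreceptors, had 3483 and 2123 in TrkC+ cells, against 778 and 629 in TrkC- cells (log2 difference 1.96 ± 0.42, adjusted p = 0.0105). Its call was lost without TrkC+ replicate 1 or TrkC- replicate 2, and its difference was 1.60 to 2.32 without 1 of the mlcNT3 arrays. Cntnap2, an axonal adhesion gene, had 4262 and 3649 in TrkC+ cells, against 1919 and 2047 in TrkC- cells (log2 difference 0.99 ± 0.19, adjusted p = 0.00432). Npy1r, a neuropeptide Y receptor, was higher by 2.22 (adjusted p = 0.0105). That call was lost without either first replicate, and Npy1r was at 1.85 to 2.58 without 1 of the mlcNT3 arrays. Th, the dopamine synthesis enzyme that marks C-fibre touch neurons, was the clearest fall, with intensities of 39.5 and 46.8 in TrkC+ cells, against 457 and 440.1 in TrkC- cells (log2 difference -3.38 ± 0.35, adjusted p = 6.47e-05). Piezo2, the touch and stretch channel that proprioceptors and touch neurons both use, had 908 and 693 in TrkC+ cells, against 603 and 690.0 in TrkC- cells (log2 difference 0.30 ± 0.23, adjusted p = 0.558). Its arrays overlapped between the populations.

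Of 11 receptors and ligands of the neurotrophin and GDNF families measured, Ntrk3 was higher and 5 were lower. Without any 1 of the mlcNT3 arrays, 2 or 3 were lower, with 2 without TrkC+ replicate 2 or TrkC- replicate 2. Gfra1, the GDNF receptor subunit, had intensities of 168 and 156 in TrkC+ cells, against 1372 and 1167 in TrkC- cells (log2 difference -2.96 ± 0.31, adjusted p = 7.68e-05), and Gfra3 and Gfra2 are given above. Ntrk2, which encodes the BDNF receptor TrkB, had 243 and 283 in TrkC+ cells, against 1716 and 1689 in TrkC- cells (log2 difference -2.70 ± 0.71, adjusted p = 0.0306), with 5 of its 8 probe sets lower, and an adjusted p of 0.133 to 0.148 without 1 of the mlcNT3 arrays. Ret, the signalling partner of the GFRA subunits, had 2280.2 and 1472 in TrkC+ cells, against 5721 and 5145 in TrkC- cells (log2 difference -1.57 ± 0.45, adjusted p = 0.0455), and an adjusted p of 0.0725 to 0.312 without 1 of the mlcNT3 arrays. Both were lower in each TrkC+ array than in either TrkC- array and lost their calls without any 1 of these arrays. Ngfr, the receptor p75 shared by all neurotrophins, had intensities of 5116 and 4096 in TrkC+ cells, against 4262 and 4292 in TrkC- cells (log2 difference 0.10 ± 0.39), and Bdnf had 609.9 and 493 in TrkC+ cells, against 528 and 594 in TrkC- cells (log2 difference -0.03 ± 0.31). The populations overlapped for both.

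Transcription factor genes were called on both sides. Of 38 sensory transcription factor genes measured, 7 were higher and 13 lower. Without 1 of the mlcNT3 arrays, 5 to 7 were higher and 7 to 11 lower, the fewest falls without TrkC+ replicate 2. Beside Runx3, Esrrg, Shox2 and Maf, the RNA-binding regulator gene Nova1 had intensities of 215 and 225 in TrkC+ cells, against 49.6 and 82.4 in TrkC- cells (log2 difference 1.78 ± 0.27, adjusted p = 0.00104). After Ldb2 and Runx1, the largest fall was that of Bcl11a, a zinc finger gene, with 119.8 and 161 in TrkC+ cells, against 1077 and 1095 in TrkC- cells (log2 difference -2.97 ± 0.28, adjusted p = 3.21e-05) and 4 of its 7 probe sets lower. Meis1, a homeobox gene, had 103 and 111 in TrkC+ cells, against 678 and 753 in TrkC- cells (log2 difference -2.73 ± 0.44, adjusted p = 0.00167), and Nfib, a nuclear factor I gene, had 317 and 364 in TrkC+ cells, against 1992 and 1901 in TrkC- cells (log2 difference -2.52 ± 0.24, adjusted p = 3.42e-05). None of these 3 overlapped between the populations. Hox genes mark position along the body axis, and of the 25 measured on the Hox list 6 were higher and 1 was lower. Hoxc8 had the largest difference of this list, with intensities of 3085 and 2075 in TrkC+ cells, against 447 and 632 in TrkC- cells (log2 difference 2.25 ± 0.38, adjusted p = 0.00213). Hoxb1, which was not on the list, differed more, with 85.0 and 113 in TrkC+ cells, against 16.6 and 12.7 in TrkC- cells. Its log2 difference was 2.73 under quantile normalization, and its TrkC- values were at the low end of the array. Hoxb9, Hoxb6, Hoxa7 and Hoxb2 were higher by 1.00 to 1.18, and Hoxa5 by 0.76. Hoxd8 was the one that fell, with 240.3 and 163 in TrkC+ cells, against 712 and 647 in TrkC- cells (log2 difference -1.78 ± 0.28, adjusted p = 0.00134). Without TrkC- replicate 1, 2 Hox genes were higher, and without any other of the 4 arrays 4 were, while 2 were lower without TrkC+ replicate 1.

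Sodium and potassium channel genes, which set how a neuron fires, were called in both directions. Of 12 sodium channel genes, 4 were higher and Scn10a and Scn11a lower. Scn1a had intensities of 2372 and 1924 in TrkC+ cells, against 279 and 362 in TrkC- cells (log2 difference 2.75 ± 0.44, adjusted p = 0.00165). Scn2a had 1456 and 1242 in TrkC+ cells, against 394 and 356 in TrkC- cells (log2 difference 1.84 ± 0.19, adjusted p = 7.15e-05), and Scn8a, the channel of nodes of Ranvier, had 3327 and 3086 in TrkC+ cells, against 985 and 1290.0 in TrkC- cells (log2 difference 1.51 ± 0.24, adjusted p = 0.00162). Scn4b, an auxiliary subunit, was higher by 2.39 (adjusted p = 0.00469, and 0.0579 without TrkC- replicate 1). Scn1a, Scn2a and Scn8a were well measured in TrkC- cells too. Of 49 potassium channel genes, 10 were higher and 8 lower. Without TrkC+ replicate 1, 6 were higher. Kcnk1, a background potassium channel, had intensities of 1517 and 1385 in TrkC+ cells, against 78.2 and 69.9 in TrkC- cells (log2 difference 4.29 ± 0.37, adjusted p = 1.88e-05). Kcns1, a silent Kv subunit, had 481 and 388 in TrkC+ cells, against 61.5 and 50.3 in TrkC- cells (log2 difference 2.96 ± 0.29, adjusted p = 4.39e-05), and the M-current subunit gene Kcnq3 had 1205 and 1079 in TrkC+ cells, against 152 and 164 in TrkC- cells (log2 difference 2.85 ± 0.20, adjusted p = 4.47e-06). On the other side, the sodium-activated channel genes Kcnt2 and Kcnt1 differed by -3.37 and -2.55, and the calcium-activated channel gene Kcnn2 had 121 and 126 in TrkC+ cells, against 1155 and 1075 in TrkC- cells (log2 difference -3.17 ± 0.43, adjusted p = 0.000483).

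Calcium channels and calcium-binding proteins were split, with 5 of 23 higher and 6 lower. There were 3 higher without TrkC- replicate 1 or either TrkC+ replicate, and 3 lower without TrkC+ replicate 2 or either TrkC- replicate. After Pvalb, Cacng2 had intensities of 612 and 774 in TrkC+ cells, against 142 and 124 in TrkC- cells (log2 difference 2.37 ± 0.29, adjusted p = 0.000231). The auxiliary subunit Cacna2d2 had 429.8 and 369 in TrkC+ cells, against 1426 and 1970.2 in TrkC- cells (log2 difference -2.07 ± 0.30, adjusted p = 0.000856). Cacna1h, a low-voltage T-type channel, had 511 and 414 in TrkC+ cells, against 1396 and 1023 in TrkC- cells (log2 difference -1.38 ± 0.21, adjusted p = 0.00128). Of 24 mechanically gated, acid-sensing, TRP and ATP-gated channel genes, 4 were higher and 5 lower. There were 2 lower without TrkC+ replicate 2 and 3 without either TrkC- replicate. Asic1, an acid-sensing channel, had 2380.2 and 2036 in TrkC+ cells, against 559 and 721 in TrkC- cells (log2 difference 1.79 ± 0.24, adjusted p = 0.00051), and the ATP-gated channel gene P2rx1 had 147 and 125 in TrkC+ cells, against 51.0 and 39.4 in TrkC- cells (log2 difference 1.59 ± 0.20, adjusted p = 0.00032). Asic3 had 1779 and 1301 in TrkC+ cells, against 466 and 764 in TrkC- cells (log2 difference 1.35 ± 0.24, adjusted p = 0.00313). Each of these 3 was higher in both TrkC+ arrays than in either TrkC- array, and P2rx1 was below the median of all probe sets in TrkC- cells. Trpc6 had the largest fall after Trpv1, with 8.87 and 13.9 in TrkC+ cells, against 103 and 148 in TrkC- cells (log2 difference -3.48 ± 0.47, adjusted p = 0.000479).

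Of 13 GABA-A receptor subunits, which carry presynaptic inhibition of sensory terminals, 4 were higher and none was lower, with a median log2 difference of 0.81. Gabrg1 had intensities of 2152 and 1926 in TrkC+ cells, against 74.0 and 93.1 in TrkC- cells (log2 difference 4.62 ± 0.40, adjusted p = 1.75e-05). Gabra5 had 1259.9 and 801 in TrkC+ cells, against 123 and 143 in TrkC- cells (log2 difference 2.92 ± 0.33, adjusted p = 0.00013). Gabra4 and Gabrb2 were at 1.40 and 1.12 and lost their calls without any 1 of the mlcNT3 arrays (adjusted p = 0.0652 to 0.317 and 0.0758 to 0.223), which left 2. Of 22 glutamate receptor genes, 4 were higher and 4 lower. There were 2 higher without TrkC+ replicate 2 or TrkC- replicate 1, and 2 lower without any 1 of the mlcNT3 arrays. The metabotropic receptor genes went both ways. Grm3 had 1776 and 1085 in TrkC+ cells, against 108 and 153 in TrkC- cells (log2 difference 3.43 ± 0.53, adjusted p = 0.00116), and Grm4 had 634 and 483 in TrkC+ cells, against 143 and 156 in TrkC- cells (log2 difference 1.89 ± 0.18, adjusted p = 3.42e-05). Grm7 had 804 and 751 in TrkC+ cells, against 3675 and 4409 in TrkC- cells (log2 difference -2.37 ± 0.24, adjusted p = 5.19e-05).

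Of 45 genes for peptide, amine and other receptors, nearly all of them G protein-coupled, 8 were higher and 10 lower. After Htr2c and Pth1r, the cholecystokinin receptor gene Cckar had intensities of 528 and 566 in TrkC+ cells, against 32.2 and 39.9 in TrkC- cells (log2 difference 3.93 ± 0.55, adjusted p = 0.000597). The neurotensin receptor gene Ntsr1 had 324 and 286 in TrkC+ cells, against 54.2 and 40.7 in TrkC- cells (log2 difference 2.70 ± 0.22, adjusted p = 1.31e-05). Htr1d, a serotonin receptor, had 1294 and 1185 in TrkC+ cells, against 226 and 186 in TrkC- cells (log2 difference 2.59 ± 0.38, adjusted p = 0.000924). Receptors on the other side included the lysophosphatidic acid receptor gene Lpar3, with 13.8 and 16.3 in TrkC+ cells, against 490.1 and 361 in TrkC- cells (log2 difference -4.81 ± 0.49, adjusted p = 6.04e-05). The neuropeptide Y receptor gene Npy2r had 15.3 and 18.3 in TrkC+ cells, against 286 and 180.1 in TrkC- cells (log2 difference -3.76 ± 0.42, adjusted p = 0.000122), and the somatostatin receptor gene Sstr4 had 86.5 and 90.95 in TrkC+ cells, against 1277 and 754 in TrkC- cells (log2 difference -3.47 ± 0.39, adjusted p = 0.000129). Serotonin receptors thus divided, since the ion channel subunit Htr3a had 127 and 235 in TrkC+ cells, against 1260.3 and 996 in TrkC- cells (log2 difference -2.70 ± 0.36, adjusted p = 0.000489). Genes for transmitter release were also split, with 7 of 40 higher and 11 lower, and 4 higher without TrkC+ replicate 2 or TrkC- replicate 1. Among the synaptotagmins, the calcium sensors of release, Syt2 had 3425 and 3206 in TrkC+ cells, against 455 and 499 in TrkC- cells (log2 difference 2.80 ± 0.21, adjusted p = 8.19e-06) and Syt7 had 495 and 417 in TrkC+ cells, against 4248 and 3919 in TrkC- cells (log2 difference -3.17 ± 0.19, adjusted p = 1.34e-06). Doc2b, a further calcium sensor, had 1408 and 1365 in TrkC+ cells, against 193 and 163 in TrkC- cells (log2 difference 2.97 ± 0.30, adjusted p = 6.21e-05), and the priming factor gene Unc13c had 57.3 and 91.05 in TrkC+ cells, against 1791 and 2407 in TrkC- cells (log2 difference -4.85 ± 0.24, adjusted p = 3.61e-07).

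Axon guidance genes, the longest list, held the most calls, with 18 of 63 higher and 14 lower. Without TrkC- replicate 1, 12 were higher and 11 lower. Epha4, an ephrin receptor, had intensities of 1028 and 948 in TrkC+ cells, against 35.6 and 89.2 in TrkC- cells (log2 difference 4.13 ± 0.50, adjusted p = 0.000209). The netrin receptor gene Dcc had 246 and 229 in TrkC+ cells, against 19.1 and 17.6 in TrkC- cells (log2 difference 3.70 ± 0.33, adjusted p = 2.56e-05), and the repellent gene Slit2 had 3624 and 3228 in TrkC+ cells, against 287 and 272 in TrkC- cells (log2 difference 3.61 ± 0.42, adjusted p = 0.00018). Sema3d had 667 and 628 in TrkC+ cells, against 38.4 and 88.0 in TrkC- cells (log2 difference 3.48 ± 0.42, adjusted p = 0.000223). All 4 were several-fold higher in both TrkC+ arrays. The netrin receptor gene Unc5d had 51.8 and 53.0 in TrkC+ cells, against 599 and 328 in TrkC- cells (log2 difference -3.08 ± 0.53, adjusted p = 0.00249), the ephrin gene Efna1 57.3 and 35.9 in TrkC+ cells, against 267 and 190.0 in TrkC- cells (log2 difference -2.31 ± 0.27, adjusted p = 0.000189), and the neuropilin gene Nrp2 67.5 and 101 in TrkC+ cells, against 309 and 346 in TrkC- cells (log2 difference -1.99 ± 0.30, adjusted p = 0.00117). Among cadherins, contactins and other adhesion genes, 16 of 54 were higher and 9 lower, with 4 lower without TrkC- replicate 1 and 5 without TrkC- replicate 2 or TrkC+ replicate 2. Pcdh7 had 958 and 651 in TrkC+ cells, against 58.5 and 62.4 in TrkC- cells (log2 difference 3.71 ± 0.32, adjusted p = 1.83e-05), and Pcdh19 had 2163 and 1725 in TrkC+ cells, against 342 and 340.0 in TrkC- cells (log2 difference 2.50 ± 0.16, adjusted p = 2.88e-06). Chl1, an adhesion molecule of the L1 family, had 805 and 968 in TrkC+ cells, against 5745 and 5504 in TrkC- cells (log2 difference -2.67 ± 0.36, adjusted p = 0.00051). Of 26 neurofilament and axonal cytoskeleton genes, 5 were higher and none lower. Without TrkC+ replicate 1, 2 were higher and 4 lower, and without TrkC- replicate 1 or TrkC+ replicate 2, 2 and 3 were higher and none lower. The tubulin gene Tuba8 had 728 and 828 in TrkC+ cells, against 65.3 and 81.2 in TrkC- cells (log2 difference 3.42 ± 0.34, adjusted p = 5.19e-05). Nefm, the medium neurofilament, had 16521 and 9874 in TrkC+ cells, against 3912 and 4915 in TrkC- cells (log2 difference 1.54 ± 0.30, adjusted p = 0.00524). Nefm lost its call without either first replicate, and was at 1.17 to 1.91 without 1 of the mlcNT3 arrays.

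Growth factor genes were mostly higher where called, with 8 of 39 higher and 4 lower. There were 5 higher without either TrkC+ replicate, and 2 lower without TrkC+ replicate 2 or either TrkC- replicate. Pdgfc had intensities of 556 and 532 in TrkC+ cells, against 28.8 and 35.5 in TrkC- cells (log2 difference 4.09 ± 0.60, adjusted p = 0.000817). Tgfb2 had 1345 and 1216 in TrkC+ cells, against 170.4 and 194 in TrkC- cells (log2 difference 2.82 ± 0.35, adjusted p = 0.00027), with all 4 probe sets higher, and Igf1 had 3995 and 3204 in TrkC+ cells, against 621 and 529 in TrkC- cells (log2 difference 2.64 ± 0.40, adjusted p = 0.00107), also in all 4. The binding protein gene Igfbp2 lay on the other side, with 52.9 and 74.6 in TrkC+ cells, against 827 and 991 in TrkC- cells (log2 difference -3.85 ± 0.49, adjusted p = 0.000305). The ERK pathway carries neurotrophin signals, and of 25 of its feedback and target genes 5 were higher and 2 lower. The feedback inhibitor gene Spry1 had 575 and 607 in TrkC+ cells, against 127 and 134 in TrkC- cells (log2 difference 2.18 ± 0.25, adjusted p = 0.000161). Spred1 had 3042 and 2804 in TrkC+ cells, against 1486 and 1115 in TrkC- cells (log2 difference 1.18 ± 0.22, adjusted p = 0.00437), with 6 of its 8 probe sets higher, and an adjusted p of 0.0591 without TrkC- replicate 2. The immediate early gene Egr1 was lower, with 1721 and 2074 in TrkC+ cells, against 3908 and 3731 in TrkC- cells (log2 difference -1.02, adjusted p = 0.00927). Its call was lost without TrkC+ replicate 1 or either TrkC- replicate, and its difference was -1.15 to -0.88 without 1 of the mlcNT3 arrays. Without TrkC- replicate 2, 2 genes of this list were higher and none lower, without TrkC+ replicate 1, 3 were higher, and without TrkC+ replicate 2 or TrkC- replicate 1, 1 was lower. Of 56 oxidative phosphorylation genes, 4 were higher and none lower, a share near that of all genes, with a median of 0.30. This count depended on the scaling, since 22 were higher under quantile normalization, and 1 was without TrkC+ replicate 1 or either TrkC- replicate. Of 18 sterol synthesis genes, none was higher and 2 were lower, with none lower without TrkC+ replicate 1 or TrkC- replicate 1, and 1 without TrkC+ replicate 2. Of 23 injury and cell death genes, 2 were higher and 1 lower, and of 17 cell division genes 1 was lower. Over all genes 5.41% were higher and 8.09% lower. The sterol, injury and cell division counts are few and are given as description only. Without TrkC+ replicate 2 or TrkC- replicate 2, 1 injury gene was higher, and the cell division count was 2 without TrkC+ replicate 2 and 0 without any other of the 4 arrays.

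**Figure D2:**
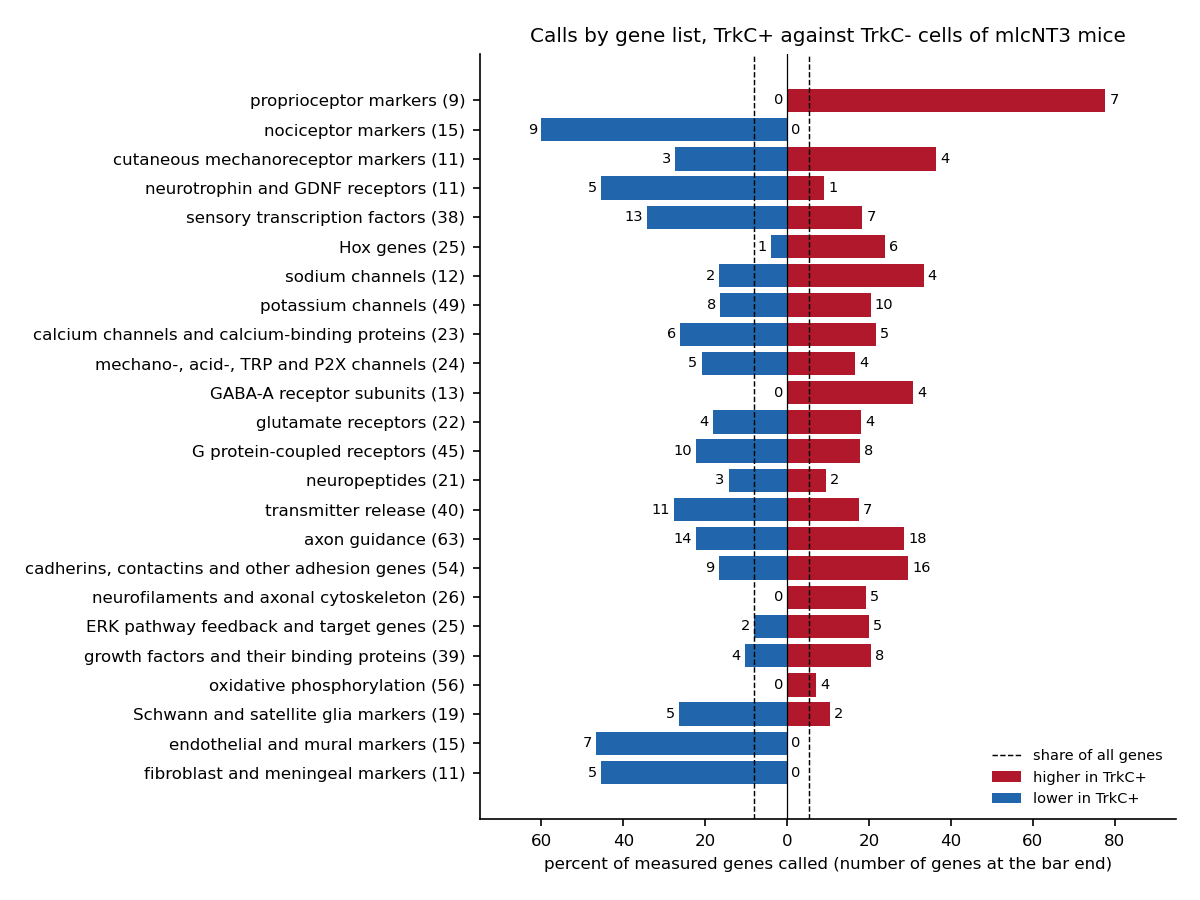
Percent of the measured genes of each list called higher (red, right) or lower (blue, left) in TrkC+ than in TrkC- cells of mlcNT3 mice, with the number of measured genes in brackets and of calls at the bar ends; dashed lines are the shares over all genes, 5.41% higher and 8.09% lower. Proprioceptor markers had 7 of 9 genes higher and nociceptor markers 9 of 15 lower, and most neuronal lists had calls on both sides.

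Markers of cells other than neurons moved with the sort. Of 19 Schwann and satellite glia markers, 2 were higher and 5 lower, and their summed intensity was 17343 and 17946 in TrkC+ cells, against 28063 and 25448 in TrkC- cells. Without any 1 of the 4 arrays, 1 of these markers was higher. The 2 that were higher, Fbxo2 and S100b, had log2 differences of 1.85 and 1.49. Dhh, the Schwann cell ligand desert hedgehog, had 186 and 343 in TrkC+ cells, against 2570.2 and 2698 in TrkC- cells (log2 difference -3.38 ± 0.33, adjusted p = 4.64e-05), and the myelin gene Pmp22 had 1456 and 1312 in TrkC+ cells, against 6269 and 6069 in TrkC- cells (log2 difference -2.16 ± 0.28, adjusted p = 0.000342). Of 15 endothelial and mural markers, 7 were lower and none higher, with sums of 969.6 and 1003 in TrkC+ cells, against 2915 and 2576 in TrkC- cells. Pdgfrb, a pericyte receptor, had 119 and 149.8 in TrkC+ cells, against 1475 and 1022 in TrkC- cells (log2 difference -3.20 ± 0.50, adjusted p = 0.00126). Of 11 fibroblast and meningeal markers, 5 were lower and none higher, with sums of 962.4 and 1427 in TrkC+ cells, against 4907 and 3968 in TrkC- cells. Dcn, which encodes the matrix protein decorin, had 69.8 and 65.9 in TrkC+ cells, against 1414 and 1345 in TrkC- cells (log2 difference -4.35 ± 0.35, adjusted p = 1.28e-05). The falls of these lists depended on single arrays. For glia 3 were lower without TrkC+ replicate 1 and 2 without TrkC- replicate 1. For vessels 4 were lower without TrkC+ replicate 1, 2 without TrkC- replicate 1 and 1 without TrkC+ replicate 2 or TrkC- replicate 2. For fibroblasts 2 were lower without TrkC+ replicate 1 or either TrkC- replicate. None of 13 macrophage and blood markers and none of 12 skeletal muscle markers passed the limma test, and 1 muscle gene was higher without TrkC+ replicate 1. Of 15 genes used by all neurons, 1 was higher and 2 lower, beside 5.41% higher and 8.09% lower of all genes. Leaving out any 1 of the 4 arrays gave 0 higher, and 0 to 2 lower, with 0 without either second replicate and 1 without TrkC- replicate 1. The part of these cells in the falls reported above was not tested.

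Whether surplus muscle NT3 changed the division between the populations was asked by setting the TrkC+ minus TrkC- difference of mlcNT3 mice against that of wild-type mice, whose arrays are separate. Of the 984 genes higher in TrkC+ cells of mlcNT3 mice, 741 were also higher in wild-type mice, which is 75.3% of the mlcNT3 list and 60.1% of the 1232 genes (6.77%) of the wild-type list. Of the 1471 lower genes, 731 were also lower in wild-type mice, 49.7% of the mlcNT3 list and 77.9% of the 938 genes (5.16%) of the wild-type list. Markers of cells other than neurons were counted in both genotypes as well. Of the fibroblast markers 5 were lower in mlcNT3 and 1 in wild-type mice, with median log2 differences of -1.42 in mlcNT3 and -0.56 in wild-type mice, and of the vessel markers 7 were lower in mlcNT3 and 2 in wild-type mice, with medians of -0.69 in mlcNT3 and -0.56 in wild-type mice. Of the glia markers 5 were lower in mlcNT3 and 3 in wild-type mice, with medians of -0.74 in mlcNT3 and -0.21 in wild-type mice. No marker of these lists was called in the test of the difference between genotypes, and their part in the counts was not tested. The TrkC+ minus TrkC- differences of both genotypes correlated at 0.836 over 18193 genes, which are not independent replicates. The test of the difference between genotypes called 19 of 45037 probe sets (0.0422%), 11 (0.0244%) with a greater and 8 (0.0178%) with a smaller value in mlcNT3 mice. By their brightest probe set 14 genes (0.077%) were called, 9 (0.0495%) greater and 5 (0.0275%) smaller. The other 5 probe sets were lesser ones of A830082K12Rik, Spry4, Dipk2a and Sorcs3, and 1 that names both Mir5130 and Kctd12. At an unadjusted p under 0.05 there were 2483 probe sets (5.51%). Leaving out any 1 of the 8 arrays of both genotypes gave 0 to 2 calls, of which at most 1 was among the 19: 2 without mlcNT3 TrkC- replicate 1, 1 without either mlcNT3 TrkC+ replicate, wild-type TrkC+ replicate 1 or wild-type TrkC- replicate 1, and 0 without mlcNT3 TrkC- replicate 2, wild-type TrkC+ replicate 2 or wild-type TrkC- replicate 2. All 19 kept their direction and an unadjusted p of at most 0.02 in each of these fits. Quantile normalization called 14 probe sets, 11 greater and 3 smaller, all among the 19. With the replicate number as a block 0 probe sets were called, and the 14 genes had adjusted p of 0.0619 to 0.17 in limma. The labels do not tie same-numbered TrkC+ and TrkC- arrays to the same mice, but in each genotype they matched in Xist and Y-linked transcripts.

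**Figure D3:**
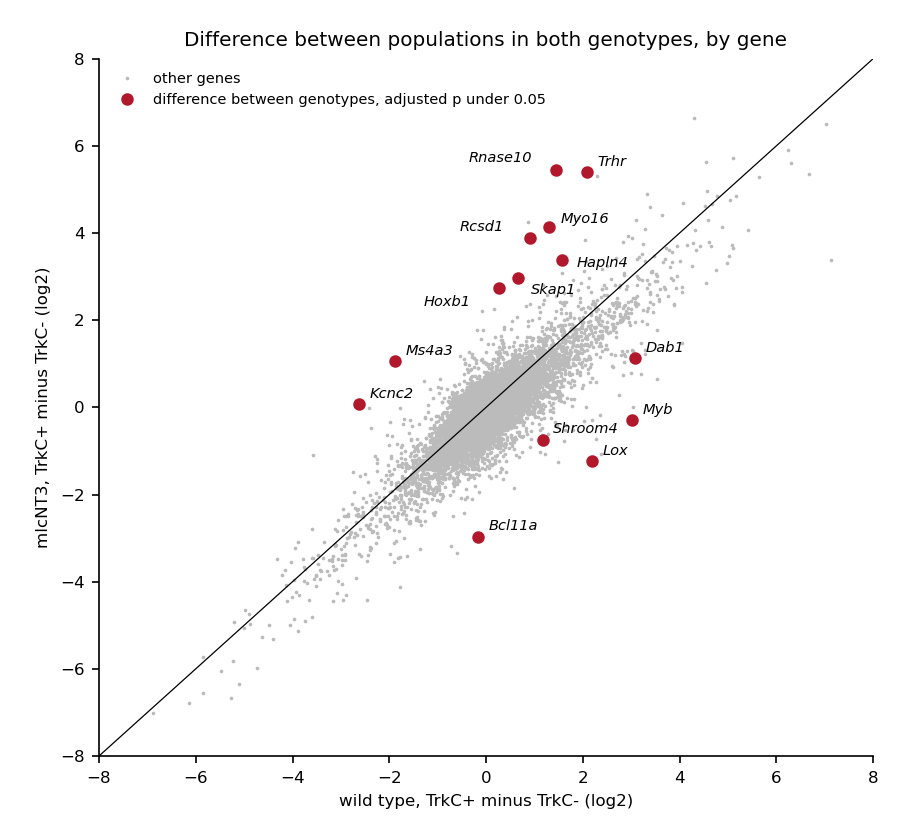
Log2 difference between TrkC+ and TrkC- cells in mlcNT3 mice (vertical) against wild-type mice (horizontal) for 18193 genes, with a line where they are equal; red points are the 14 genes whose difference between genotypes had an adjusted p under 0.05. Rnase10 and Trhr lie above the line, and Lox, Myb and Bcl11a below it.

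In 8 of the 9 genes with a greater difference, the TrkC+ cells of mlcNT3 mice had the highest values of the 4 groups. Rnase10 had 1122 and 429 in mlcNT3 TrkC+ cells, against 37.6 and 52.5 in wild-type TrkC+ cells, and at most 17.0 units in TrkC- cells of either genotype. Its difference between genotypes was 3.99 ± 0.47 on the log2 scale (adjusted p = 0.0169). Trhr had 772 and 639 in mlcNT3 TrkC+ cells, against 44.6 and 58.7 in wild-type TrkC+ cells (3.32 ± 0.37, adjusted p = 0.0158). Both genes were above TrkC- cells in wild-type TrkC+ cells also. Myo16, an unconventional myosin, had 1393 and 1162 in mlcNT3 TrkC+ cells, against 157 and 163 in wild-type TrkC+ cells (2.84 ± 0.35, adjusted p = 0.0217). Rcsd1, a regulator of actin capping, had 1732 and 1529, against 235 and 245 in wild-type TrkC+ cells (2.98 ± 0.38, adjusted p = 0.0217). Skap1, an adaptor known from T cells, had 200.4 and 186, against 36.9 and 43.4 in wild-type TrkC+ cells (2.31 ± 0.29, adjusted p = 0.0217). Hapln4, a link protein of the matrix around axons, and the homeobox gene Hoxb1 showed the same order. Hapln4 had 366 and 416 in mlcNT3 TrkC+ cells, against 153 and 125 in wild-type TrkC+ cells (1.80 ± 0.23, adjusted p = 0.0217). Hoxb1 had 85.0 and 113, against 16.7 and 17.98 in wild-type TrkC+ cells (2.48 ± 0.32, adjusted p = 0.0224), and in wild-type mice it was low in TrkC- cells too, with 13.8 and 14.9. The TrkC- cells of the genotypes differed little beside the TrkC+ cells in these 7 genes.

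Kcnc2 and Ms4a3 were lower in wild-type TrkC+ cells than in the other 3 groups. Kcnc2, a voltage-gated potassium channel of the Kv3 family, had 1391 and 1569.5 in TrkC+ and 1481 and 1339 in TrkC- cells of mlcNT3 mice, against 198 and 169 in TrkC+ and 1186 and 1072 in TrkC- cells of wild-type mice. It was thus low in 1 group of the 4, the wild-type TrkC+ cells, and its difference between genotypes was 2.69 ± 0.36 (adjusted p = 0.024). Ms4a3, a membrane protein known from blood cells, had 631 and 604 in TrkC+ and 244 and 360.3 in TrkC- cells of mlcNT3 mice, against 71.2 and 68.0 in TrkC+ and 262 and 251 in TrkC- cells of wild-type mice (2.94 ± 0.34, adjusted p = 0.0158). It was the 1 gene called higher in TrkC+ cells of mlcNT3 mice and lower in those of wild-type mice, and its mlcNT3 call held without TrkC- replicate 2 alone, with an adjusted p of up to 0.158 without TrkC- replicate 1.

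In 5 genes the mlcNT3 TrkC+ cells lay below the wild-type TrkC+ cells. Bcl11a had 119.8 and 161 in TrkC+ and 1077 and 1095 in TrkC- cells of mlcNT3 mice, against 937 and 760.4 in TrkC+ and 849.9 and 1043 in TrkC- cells of wild-type mice (-2.81 ± 0.39, adjusted p = 0.0307). By this brightest probe set Bcl11a was low in the mlcNT3 TrkC+ cells alone, and no other probe set of Bcl11a was called in this test. Lox, the collagen-crosslinking enzyme lysyl oxidase, had 159 and 127 in TrkC+ and 289 and 385 in TrkC- cells of mlcNT3 mice, against 1164 and 1475 in TrkC+ and 362 and 226 in TrkC- cells of wild-type mice (-3.43 ± 0.39, adjusted p = 0.0158). Myb, a transcription factor, had 20.5 and 19.6 in mlcNT3 TrkC+ cells, against 155 and 133 in wild-type TrkC+ cells, with 22.4 and 26.6 in TrkC- cells of mlcNT3 and 16.2 and 19.4 in those of wild-type mice (-3.30 ± 0.47, adjusted p = 0.031). Myb was thus near the low end of the array in every group but wild-type TrkC+ cells. Dab1, the reelin adaptor, had 328 and 321 in mlcNT3 TrkC+ cells, against 800.4 and 842 in wild-type TrkC+ cells (-1.95 ± 0.27, adjusted p = 0.0307), and was above TrkC- cells in both genotypes. Shroom4, an actin-binding protein, had 118 and 119 in mlcNT3 TrkC+ cells, against 381 and 403 in wild-type TrkC+ cells (-1.91 ± 0.25, adjusted p = 0.024). Lox, Shroom4 and Sema5a, a semaphorin, were the 3 genes called lower in TrkC+ cells of mlcNT3 mice and higher in those of wild-type mice. Without single arrays the calls of Lox and Shroom4 in mlcNT3 mice were lost and had an adjusted p of 0.122 and 0.112 without TrkC- replicate 2. Sema5a, named after its values were seen, had 210.2 and 181 in TrkC+ and 473 and 458 in TrkC- cells of mlcNT3 mice, against 963 and 722 in TrkC+ and 244 and 359.6 in TrkC- cells of wild-type mice, and its difference between genotypes was -2.75 ± 0.44 with an adjusted p of 0.0765.

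**Figure D4:**
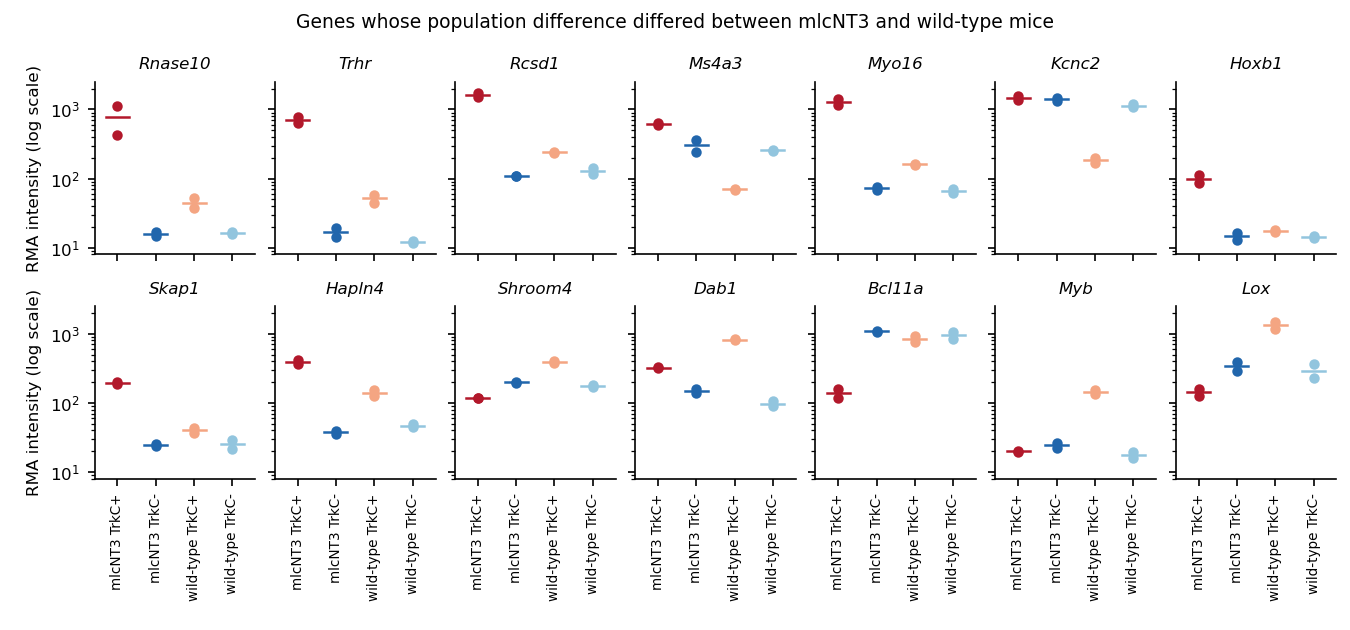
RMA intensity on a log axis in each array (points) and its mean (bars) for the 14 genes whose TrkC+ minus TrkC- difference differed between genotypes, in mlcNT3 TrkC+, mlcNT3 TrkC-, wild-type TrkC+ and wild-type TrkC- cells from left to right. The 2 TrkC+ groups are apart in every panel, as in Kcnc2 with 1391 and 1569.5 in mlcNT3 and 198 and 169 in wild-type TrkC+ cells.

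For most of the genes that marked TrkC+ cells, no difference between genotypes was detectable with 2 arrays a group. The difference of Pvalb was -0.51 ± 0.78 (adjusted p = 0.973) and that of Runx3 -0.35 ± 0.41 (adjusted p = 0.961). Ntrk3 was at -1.44 ± 0.43 (adjusted p = 0.667), but its TrkC+ intensities were close, with 2668 and 1709.9 in mlcNT3 and 2531 and 2286 in wild-type mice. Most of its difference lay in TrkC- cells, whose mean was higher in mlcNT3 than in wild-type mice. Some unequal values did not pass. Reg3b, a secreted lectin induced by nerve injury, had 173 and 114 in mlcNT3 TrkC+ cells, against 3419 and 3159 in wild-type TrkC+ cells, with -3.74 ± 1.19 and an adjusted p of 0.724. Kcnq3 had 1205 and 1079 in mlcNT3 TrkC+ cells, against 2091 and 1912 in wild-type TrkC+ cells (-1.70 ± 0.28, adjusted p = 0.108). The gap between these TrkC+ cells makes up only part of the -1.70, and the rest lay in TrkC- cells. Gfra3 had 199 and 203 in mlcNT3 TrkC+ cells, against 657 and 559 in wild-type TrkC+ cells (-1.46 ± 0.25, adjusted p = 0.111). For these 3 the TrkC+ arrays of the genotypes did not overlap. This is description only, since the share of all genes was not counted for these groups. Scg2 had 451 and 331 in mlcNT3 TrkC+ cells, against 2545 and 2229 in wild-type TrkC+ cells (-2.73 ± 0.52, adjusted p = 0.209), and Crh had 655 and 373 in mlcNT3 TrkC+ cells, against 93.7 and 34.3 in wild-type TrkC+ cells (3.02 ± 0.68, adjusted p = 0.336).

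The other end of the NT3 scale in this series is the NT3-/-Bax-/- mouse. The TrkC+ minus TrkC- difference of mlcNT3 mice was greater for 2463 and smaller for 3308 of 45037 probe sets (5.47% and 7.35%), and greater for 1356 (7.45%) and smaller for 1677 (9.22%) of 18193 genes. There were 1591 greater without mlcNT3 TrkC- replicate 2, and 1528, 1926 and 1833 smaller without mlcNT3 TrkC+ replicate 2, TrkC- replicate 1 and TrkC- replicate 2. The correlation of the mlcNT3 and NT3-/-Bax-/- differences over 18193 genes was 0.286. Markers of cells other than neurons also differed between these genotypes. The median log2 difference between TrkC+ and TrkC- cells was -1.42 in mlcNT3 and -4.65 in NT3-/-Bax-/- mice over the fibroblast markers. Over the vessel markers the median was -0.69 in mlcNT3 and -3.08 in NT3-/-Bax-/- mice. The part of these cells in the comparison was not tested. In Bax-/- mice, which lack Bax but not NT3, the differences correlated with those of mlcNT3 mice at 0.793 over the same genes.

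A list of 18 genes was taken from those the study names as enriched in proprioceptors or as regulated by NT3, which it chose on these samples, so their direction is no independent evidence. Of these, 14 were higher and none lower in TrkC+ cells of mlcNT3 mice, with a median log2 difference of 2.52, and 18 were higher in wild-type mice. Against NT3-/-Bax-/- mice, 10 had a greater and 4 a smaller difference in mlcNT3 mice. Among the 10, Htr2c differed by 5.91 between the populations of mlcNT3 mice and by 0.72 in NT3-/-Bax-/- mice. Gabrg1 was at 4.62 in mlcNT3 and -0.57 in NT3-/-Bax-/- mice, and Crim1, a regulator of bone morphogenetic proteins, at 4.30 and -0.89. Crim1 had 682 and 519.5 in mlcNT3, 52.3 and 38.0 in NT3-/-Bax-/- and 284 and 273 in wild-type TrkC+ cells. Gabrg1 had 2152 and 1926 in mlcNT3, 18.7 and 26.3 in NT3-/-Bax-/- and 890.0 and 1267 in wild-type TrkC+ cells. Shc4, a signalling adaptor, had 1593 and 1586 in mlcNT3, 26.0 and 48.1 in NT3-/-Bax-/- and 514 and 558 in wild-type TrkC+ cells. In these 3 genes the TrkC+ arrays of the genotypes did not overlap. The study chose them on these samples, and the share of all genes was not counted for these groups. The 4 genes with a smaller difference in mlcNT3 than in NT3-/-Bax-/- mice were Meis2 (0.86 and 5.29), Nova1 (1.78 and 4.36), P2rx1 (1.59 and 4.03) and Lmo1 (1.08 and 3.46). Meis2, a homeobox gene, had 2426 and 1838 in mlcNT3, 7541 and 8465 in NT3-/-Bax-/- and 4060.2 and 3922 in wild-type TrkC+ cells.

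**Figure D5:**
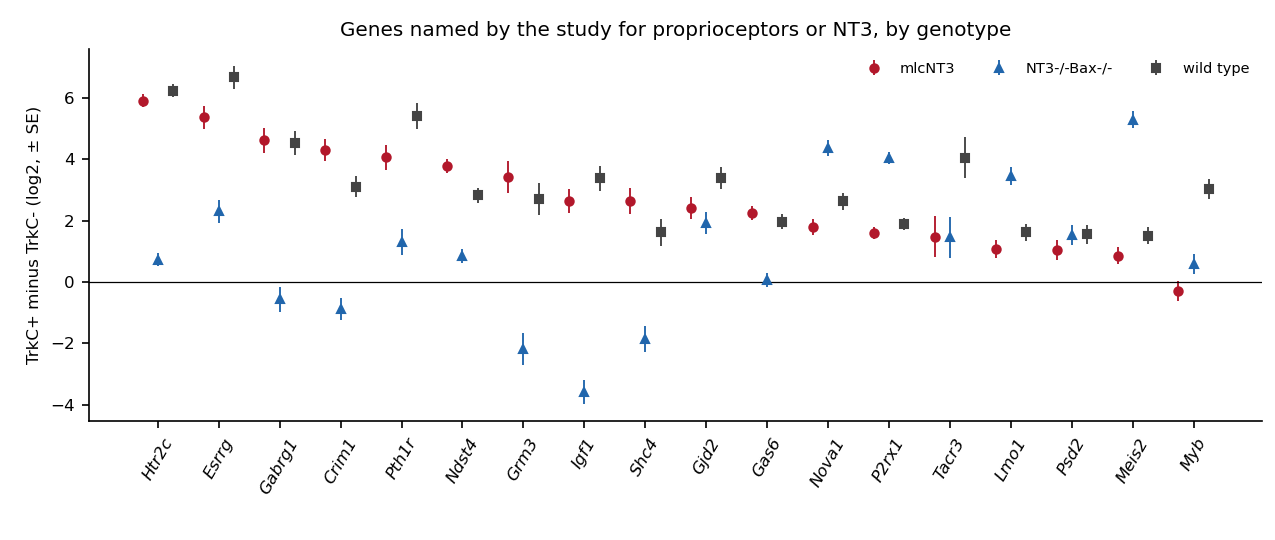
Log2 difference between TrkC+ and TrkC- cells with its standard error for 18 genes the study names as enriched in proprioceptors or as regulated by NT3, in mlcNT3 (red circles), NT3-/-Bax-/- (blue triangles) and wild-type mice (grey squares). Htr2c is at 5.91, 0.72 and 6.23 in these genotypes, and Meis2 at 0.86 in mlcNT3 and 5.29 in NT3-/-Bax-/- mice.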

How the data were processed

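Lumbar ganglia of newborn mice were dissociated and sorted by TrkCGFP fluorescence, and RNA of about 350 cells a sample was amplified and hybridised to Affymetrix Mouse430 2.0 arrays, 1 colour and 1 sample an array. The deposited values are RMA intensities, background-corrected, quantile-normalized and summarised per probe set by the authors with affy in R 2.9, and they stand on the linear scale. They were read as such, and log2 was taken with no offset.

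The fit was made with limma 3.58.1 in R 4.3.3 on 16 arrays (8 groups of 2), with lmFit and eBayes (residual degrees of freedom 8, prior 4.11), and p-values were adjusted by Benjamini-Hochberg over all 45037 probe sets. A call is an adjusted p under 0.05. Differences are TrkC+ minus TrkC-, and differences between genotypes are contrasts of these. Tables were written with Python 3.11.15 and pandas 2.3.3. Of the probe sets, 34945 name 1 gene, 932 several and 9160 none, and a gene is read from the brightest of its own probe sets. Array intensity cannot rank genes against each other.

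Members and lists were chosen with earlier results of these data known. Named genes were the 15 largest rises and falls among non-overlapping calls, up to 5 calls a list and direction, all genes of 5 lists, and up to 10 genes a direction for each difference between genotypes. Genes with no probe set of their own, among them Ntf3 and Bax, were not analysed here. Simulated data were used to test the fit before use. Alternatives tried were quantile normalization of the log2 values, a filter on dim probe sets, an offset of 16 before log2, a replicate block, the arrays compared alone, the t-test of the methods, the mean of a gene's probe sets, and each of the 16 arrays left out. The number of arrays limits the precision.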

Additional observations from a re-analysis of the deposited data

Results flagged for a closer look

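All results here were picked out because the difference between TrkC+ and TrkC- cells differed between genotypes by a limma test of that difference, with values as mlcNT3 minus the other genotype on the log2 scale. Against wild-type mice, 19 probe sets passed. The 14 genes whose brightest probe set passed were Rnase10 (3.99), Trhr (3.32), Rcsd1 (2.98), Ms4a3 (2.94), Myo16 (2.84), Kcnc2 (2.69), Hoxb1 (2.48), Skap1 (2.31) and Hapln4 (1.80), which were greater in mlcNT3 mice, and Shroom4 (-1.91), Dab1 (-1.95), Bcl11a (-2.81), Myb (-3.30) and Lox (-3.43), which were smaller. With 1 of the 8 mlcNT3 or wild-type arrays left out, the highest adjusted p of these genes lay between 0.14 for Lox and 0.271 for Bcl11a, Dab1 and Myb.

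Against NT3-/-Bax-/- mice, 5771 probe sets passed. The genes with the greatest values were Lyz1 (8.10), Vip (6.86), Gm16551 (6.82), Mylk (6.25), Cemip (6.25), Igf1 (6.23), Cldn1 (5.90), Mndal (5.85), Adgrg3 (5.78) and Kitl (5.71). In Lyz1, Mylk, Mndal, Cldn1 and Kitl the mlcNT3 difference between populations did not pass the test, with log2 differences of 2.76, 1.57, 0.69, 0.35 and -0.83, and in NT3-/-Bax-/- mice the log2 differences of these genes were -5.34, -4.68, -5.16, -5.55 and -6.54. The genes with the smallest values were St6gal2 (-9.24), Nell1 (-7.57), Ldb2 (-7.48), Shisa6 (-7.12), Lpar3 (-6.95), Abi3bp (-6.83), 9430021M05Rik (-6.22), Igsf9 (-5.43), Sphkap (-5.24) and Fxyd6 (-5.20). St6gal2 had intensities of 9.79 and 11.6 in TrkC+ cells, against 772 and 986 in TrkC- cells of mlcNT3 mice, and 233 and 311 in TrkC+ and 62.8 and 21.3 in TrkC- cells of NT3-/-Bax-/- mice.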

How the results depend on the processing

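For TrkC+ against TrkC- cells of mlcNT3 mice, fitting the 4 arrays alone gave 2924 probe sets higher and 4214 lower, against 1884 and 2631 over 16 arrays. The methods' t-test on the 4 arrays gave 880 higher and 1026 lower at p of at most 0.02 and 2-fold, against 1485 and 1896 by limma, and 0 in each direction after adjustment, with 7380 at an unadjusted p under 0.05. Leaving out 1 of the 16 arrays gave 930 to 2150 higher and 1178 to 3058 lower, and 1322 to 1517 higher and 1592 to 2086 lower at the threshold of the study. The share of calls that were higher was 41.7%, 50.6% under quantile normalization and 48.9% without TrkC+ replicate 2. For the difference between mlcNT3 and wild-type mice, with 11 greater and 8 smaller, the 8 arrays alone gave 74 and 144, quantile normalization 11 and 3, an offset before log2 13 and 4, and leaving out 1 array 0 to 13 greater and 0 to 15 smaller. For the difference between mlcNT3 and NT3-/-Bax-/- mice, the 8 arrays alone gave 1667 greater and 1822 smaller, quantile normalization 2739 and 2604, and leaving out 1 array 1591 to 2965 and 1528 to 3886. No label ties same-numbered TrkC+ and TrkC- arrays to the same mice, though they matched in Xist and Y-linked transcripts in each genotype, and the correlation of their deviations was 0.00768 in mlcNT3, 0.197 in wild-type, 0.283 in Bax-/- and 0.158 in NT3-/-Bax-/- mice. With the replicate block, the difference between mlcNT3 and wild-type mice had 0 calls greater and 0 smaller in limma, with 2755 at an unadjusted p under 0.05, while 1892 and 2773 probe sets were called in mlcNT3 mice. The cause of these changes was not tested. No called difference of a named gene changed direction, and among those not called, the differences of Bdnf, Colq, Kcnc2 and Ngfr changed sign in some settings. Of 192 named genes called in mlcNT3 mice, 126 were called without each of the 4 mlcNT3 arrays in turn, and 26 lost their call without each of them.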
